A study of Arabidopsis thaliana with 6 samples.

Results

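Aldehyde dehydrogenases were examined in Arabidopsis seedlings exposed to ozone. The 8 genes ALDH7B4, ALDH2C4, ALDH10A8, ALDH10A9, ALDH6B2, ALDH11A3, ALDH3F1 and ALDH22A1 were chosen by symbol. Each has 1 probe set that the array's annotation assigns to that gene alone, so the family was read from 8 of 22810 probe sets. All 8 were bright enough to be tested, among 13648 tested probe sets. The RefSeq gene table holds 14 loci with an ALDH symbol, and the 6 others (ALDH2B4, ALDH2B7, ALDH3H1, ALDH3I1, ALDH5F1 and ALDH12A1) were not analysed here.

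The ozone group was 3 samples of whole plants of the accession Col-0 given 500 ppb ozone for 6 h in sealed chambers. The control group was 3 samples of whole Col-0 plants given charcoal-filtered, scrubbed air for the same 6 h. All were seedlings at developmental stage 1.04, grown on 0.8% agar at 20 °C with 16 h of light and 8 h of dark, and all were harvested as soon as fumigation ended. Each sample was hybridized to 1 Affymetrix ATH1 array, and a value is the array's MAS5 signal, a linear brightness that can be compared between samples for one probe set but not between probe sets.

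Aldehydes form when membrane lipids are oxidised and when amino acids, polyamines and sugars are broken down, and they react with proteins and DNA. Aldehyde dehydrogenases oxidise them to carboxylic acids with NAD+ or NADP+ as the electron acceptor. Ozone that enters a leaf gives rise to reactive oxygen species, and lipid peroxidation is a known consequence. Plant family members differ in substrate and compartment, from phenylpropanoid synthesis in the cytosol to valine breakdown in mitochondria.

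Ozone-fumigated plants were set against plants in scrubbed air to see which of these transcripts differed. ALDH7B4 rose 3.06-fold and ALDH3F1 fell to 0.574 of its control level, while 6 of the 8 genes did not pass the threshold (limma adjusted p under 0.05 over all tested probe sets). The 2 calls among 8 genes stand beside 28.0% of all tested probe sets called in either direction, 13.0% higher and 14.9% lower, so the number of calls in the family was near the background. The median log2 fold change of the 8 genes was -0.16, beside -0.15 for all tested probe sets. Ozone and control arrays were fully separated at 5 of the 8 genes, 2 with higher and 3 with lower ozone signals, beside 45.7% of all tested probe sets (18.2% higher and 27.5% lower).

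**Figure D1:**
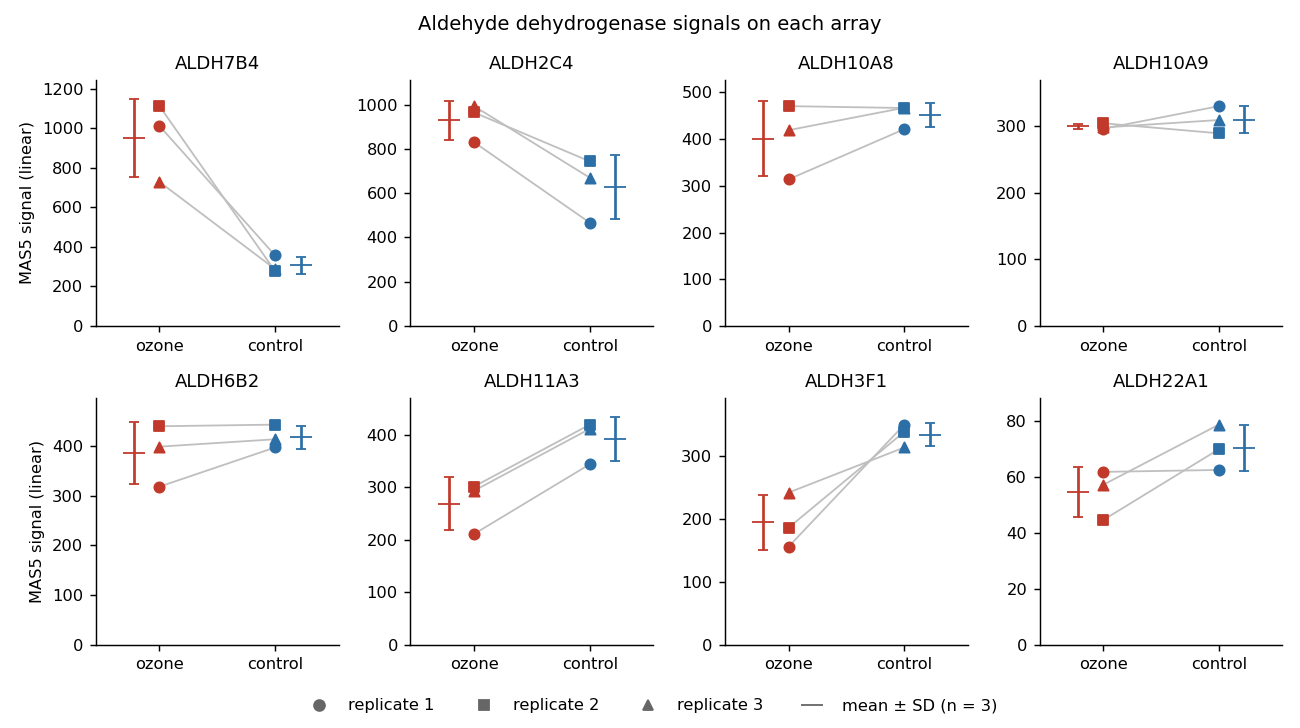
Linear MAS5 signal (vertical axes, each from 0) of the 8 aldehyde dehydrogenase genes on the 3 ozone arrays (red, left) and the 3 control arrays (blue, right). Symbols give the replicate number, grey lines join arrays of the same number, and bars show mean ± SD (n = 3). ALDH7B4 lies between 728.3 and 1111.3 on ozone arrays, above all control arrays, and ALDH3F1 lies between 156.1 and 242.2 on ozone arrays, below all control arrays.

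ALDH7B4 belongs to the antiquitin family, whose Arabidopsis member is known from responses to drought and salt and from protection against lipid peroxidation. Its signals were 1011.1, 1111.3 and 728.3 on ozone arrays 1, 2 and 3, against 356.6, 277.3 and 287.7 on control arrays 1, 2 and 3. Every ozone array was above every control array, and ozone replicate 3 was the lowest of its group. The means were 950.2 ± 199 with ozone and 307.2 ± 43.1 in control plants (SD, n = 3 each). The log2 fold change was 1.62 (SE 0.202, 95% interval 1.15 to 2.08, limma adjusted p = 0.00124). ALDH7B4 stood at rank 650 when the 13648 tested probe sets were ordered from the highest log2 fold change, above 95.2% of them.

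Taken by replicate number, the log2 difference of ALDH7B4 between ozone and control was 1.50, 2.00 and 1.34 for numbers 1, 2 and 3. Its adjusted p was 0.00761 without control replicate 2 and 0.00768 without control replicate 3, the 2 largest when 1 array was left out. The call of ALDH7B4 therefore did not rest on 1 array. The 3 genes whose log2 signal over the 6 arrays was most like that of ALDH7B4, of 7312 candidates, were AT1G31550 (r = 0.998), AT3G10930 (r = 0.998) and AT3G50910 (r = 0.998). Such a likeness is mainly the difference between the groups, and 441 candidates had r above 0.95. AT3G10930 had control signals of 19, 12 and 15.1, all below the filter level of 31.2, so it was tested only through its ozone signals. The r of AT3G10930 therefore rests in part on dim signals. AT1G31550 had signals of 246.1, 268.4 and 156.3 with ozone, against 65.5, 49.0 and 45.0 in control plants. Its ozone replicate 3 was the lowest of its group, as for ALDH7B4. The choice by likeness over the same 6 arrays largely fixed that match, so it supports nothing further.

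ALDH3F1 encodes a member of family 3, whose studied plant enzymes oxidise medium- and long-chain aldehydes. Its signals were 156.1, 186.3 and 242.2 on ozone arrays 1, 2 and 3, against 350.5, 339.1 and 314.1 on control arrays 1, 2 and 3. The groups did not overlap, and the spread was wider among ozone arrays. The means were 194.9 ± 43.7 with ozone and 334.6 ± 18.6 in control plants (SD, n = 3 each). ALDH3F1 thus had a log2 fold change of -0.80 (SE 0.188, 95% interval -1.24 to -0.37, limma adjusted p = 0.0163). By replicate number the log2 differences of ALDH3F1 were -1.17, -0.86 and -0.38, with the smallest fall in number 3. The adjusted p of ALDH3F1 was 0.0602 without ozone replicate 2 and 0.0579 without control replicate 2, and its log2 fold change stayed between -0.97 and -0.65 when any 1 array was left out.

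ALDH2C4 makes ferulate and sinapate from coniferaldehyde and sinapaldehyde, a side branch of the pathway to lignin. Its signals were 830.4, 964.8 and 993.5 on ozone arrays 1, 2 and 3, against 467.0, 744.0 and 670.1 on control arrays 1, 2 and 3. All 3 ozone arrays were above all 3 control arrays, and replicate 1 was the lowest array of both groups. ALDH2C4 had a log2 fold change of 0.59 (SE 0.204, 95% interval 0.12 to 1.06), with a limma adjusted p of 0.0649, and did not pass. With the replicate number as a block, which takes out what arrays of the same number share, its SE was 0.111 and it was higher with ozone (adjusted p = 0.00234). By replicate number the log2 differences were 0.83, 0.37 and 0.57, all in the same direction.

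ALDH11A3 is the cytosolic glyceraldehyde-3-phosphate dehydrogenase that works without phosphate and yields NADPH. Its signals were 210.6, 301.0 and 293.1 on ozone arrays 1, 2 and 3, against 343.4, 419.0 and 410.9 on control arrays 1, 2 and 3. The groups did not overlap, and replicate 1 was again the lowest array of each group. ALDH11A3 had a log2 fold change of -0.56 (SE 0.187, 95% interval -0.99 to -0.12), with a limma adjusted p of 0.0595, and did not pass. With the block it was lower with ozone (SE 0.115, adjusted p = 0.00377). By replicate number the log2 differences were -0.71, -0.48 and -0.49.

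The block therefore raised the calls in the family to 4 of 8, 2 higher and 2 lower. It raised the calls over all tested probe sets as well, to 49.1% in either direction, 19.1% higher and 30.0% lower. The share called in the family was again near that of all tested probe sets.

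**Figure D2:**
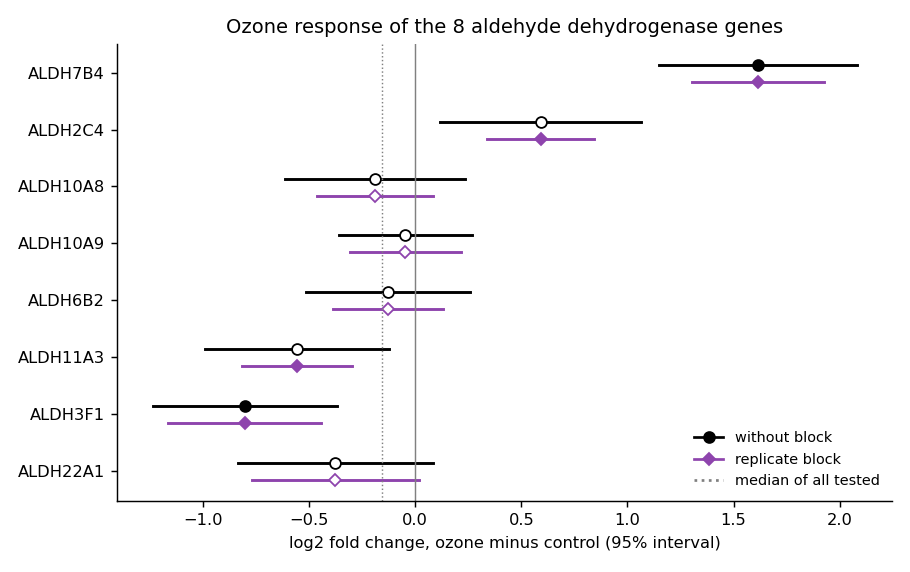
Log2 fold change, ozone minus control (horizontal axis), with its 95% interval for the 8 aldehyde dehydrogenase genes, without a block (black circles) and with the replicate number as a block (purple diamonds). Filled symbols passed an adjusted p of 0.05 and the dotted line is the median of all tested probe sets, -0.15; ALDH7B4 and ALDH3F1 are filled in both fits, ALDH2C4 and ALDH11A3 with the block only.

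The aminoaldehyde dehydrogenases ALDH10A8 and ALDH10A9 oxidise betaine aldehyde and the aminoaldehydes that polyamine breakdown releases. ALDH10A8 had signals of 313.7, 470.3 and 418.9 with ozone, against 421.0, 466.2 and 466.8 in control plants. ALDH10A9 had signals of 295.5, 303.7 and 297.4 with ozone, against 329.4, 288.7 and 308.6 in control plants. The groups overlapped for both genes, and ALDH10A8 was lowest on ozone replicate 1.

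ALDH10A8 had a log2 fold change of -0.19 (95% interval -0.61 to 0.23, limma adjusted p = 0.475). ALDH10A9 had -0.05 (95% interval -0.36 to 0.27, limma adjusted p = 0.834), which turned to 0.03 when each array was centred on its median. The interval of ALDH10A9 holds folds of 0.779 to 1.21, so a larger change in either direction lies outside it. The difference between both responses was tested on the log2 signal of ALDH10A8 minus that of ALDH10A9, which averaged 0.40 ± 0.283 on ozone arrays and 0.55 ± 0.174 on control arrays (SD, n = 3 each). These differed by -0.14 (two-sided exact permutation p = 0.6, where the smallest p that 3 against 3 allows is 0.1). Taken by replicate number the difference was -0.27, -0.06 and -0.10, all of one sign, and an exact sign-flip permutation test of these pairs gave p = 0.25, which is the smallest that 3 pairs allow.

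ALDH6B2 is the mitochondrial methylmalonate-semialdehyde dehydrogenase of valine breakdown. Its signals were 318.0, 439.6 and 398.5 with ozone, against 396.9, 442.9 and 413.4 in control plants, and the groups overlapped. The log2 fold change was -0.13 (95% interval -0.51 to 0.26, limma adjusted p = 0.602). ALDH6B2, ALDH10A8, ALDH11A3 and ALDH3F1 were each lowest on ozone replicate 1 among all 6 arrays. That array also had the lowest median signal over all probe sets (41.7, against 44.7 to 49.45 on the others). Whether this bears on the signals of these genes was not tested.

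ALDH22A1 belongs to a family known from plants. Its probe set was dim, with a mean signal above 29.2% of the tested probe sets. Its signals were 61.7, 44.5 and 57.1 with ozone, against 62.4, 69.8 and 78.6 in control plants. The groups did not overlap, but only by the small step between ozone replicate 1 and control replicate 1. The log2 fold change was -0.38 (95% interval -0.83 to 0.08, limma adjusted p = 0.196, and 0.103 with the block), and with 64 added to every signal it was -0.18.

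A negative log2 fold change was found for 6 of the 8 genes, and for 8394 of the 13648 tested probe sets. Measured against the median of all tested probe sets, the log2 fold change was 1.77 for ALDH7B4, 0.75 for ALDH2C4, -0.65 for ALDH3F1, -0.40 for ALDH11A3 and -0.22 for ALDH22A1. On that scale ALDH10A8, ALDH6B2 and ALDH10A9 had -0.03, 0.03 and 0.11, so they lay close to the middle of the array.

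Enzymes of the pathways that make or use the same aldehydes were read beside the family. The lists name 75 loci, of which 17 had a probe set naming them alone and 16 could be tested, so each list is read from few of its genes. Of the 16, 6 rose, 1 fell and 9 did not pass, beside 13.0% higher and 14.9% lower over all tested probe sets. With the block 7 were higher and 4 lower, beside 19.1% and 30.0%. Their median log2 fold change was 0.33, beside -0.15 over all tested probe sets. CCR2 and AT5G38710 passed the filter on dim signals only through the ozone group, where they are high. AT5G09300 passed it only through the control group. These counts and the median therefore describe the tested genes and support nothing about the pathways. The lists of other ALDH genes and of the GABA shunt had 0 tested members.

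Carbonyl reductases remove reactive aldehydes by reduction or by saturating their double bond. The alkenal reductase gene AER had signals of 729.1, 658.8 and 344.6 with ozone, against 222.0, 182.5 and 123.3 in control plants. It rose 3.21-fold (log2 fold change 1.68, SE 0.326, limma adjusted p = 0.00753). Its plastid counterpart AOR had signals of 216.0, 191.8 and 177.7 with ozone, against 426.9, 309.1 and 289.4 in control plants, and fell by 0.79 on the log2 scale (limma adjusted p = 0.0174). The adjusted p of AOR was 0.0613 and 0.0505 without ozone replicate 2 or 3, and 0.0561 with median centring. These 2 reductases, the only ones tested of 7 listed, thus moved in opposite directions. The groups overlapped for neither, beside 45.7% of all tested probe sets without overlap.

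In the phenylpropanoid pathway, which supplies the substrates of ALDH2C4, 2 of 18 genes were tested, HCT and CCR2, and both rose. CCR2 reached the test only through its ozone signals, so this count is no support for a rise of the pathway. The hydroxycinnamoyl transferase gene HCT had signals of 1002.6, 890.7 and 938.0 with ozone, against 606.0, 546.8 and 611.1 in control plants (log2 fold change 0.68, limma adjusted p = 0.0102, and 0.0538 without control replicate 2). CCR2, a cinnamoyl-CoA reductase that forms hydroxycinnamaldehydes, had 119.6, 121.4 and 81.3 with ozone, against a dim 10.4, 16.6 and 19.2 in control plants. Its log2 fold change of 2.83 (limma adjusted p = 0.000489) depends on how dim signals are treated and was 1.97 and 1.10 with 16 and 64 added to every signal.

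Around ALDH6B2 and ALDH7B4, 6 of 12 genes of branched-chain amino acid and lysine breakdown were tested. IVD, the mitochondrial isovaleryl-CoA dehydrogenase of leucine breakdown, rose to 123.6, 160.8 and 86.9 with ozone, against 61.5, 67.4 and 63.9 in control plants (log2 fold change 0.90, limma adjusted p = 0.0250). IVD kept its call without ozone replicate 3 but lost it without any 1 of the remaining arrays (adjusted p 0.0501 to 0.0825) and without both arrays numbered 1 (0.0569). The methylcrotonyl-CoA carboxylase subunit genes MCCA and MCCB did not pass, at log2 fold changes of 0.79 (adjusted p = 0.115) and -0.48 (0.0793). With the block MCCA was higher (adjusted p = 0.0303) and MCCB lower (0.0173). AT4G33150, which encodes the first enzymes of lysine breakdown, had 0.39 (adjusted p = 0.396), AT2G26800 had 0.27 (0.330) and AT5G09300 had -0.59 (0.186).

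Other carbon and nitrogen pathways had few measured genes. AT5G38710, a proline dehydrogenase gene, had signals of 200.9, 208.2 and 114.8 with ozone, against 29.4, 29.5 and 19.8 in control plants (log2 fold change 2.71, limma adjusted p = 0.000580). The control signals of AT5G38710 were all below the filter level of 31.2, and adding 16 or 64 to every signal gave it log2 fold changes of 2.14 and 1.38. The pyruvate decarboxylase gene PDC2, whose product forms acetaldehyde, had 468.4, 806.1 and 585.6 with ozone, against 187.5, 185.0 and 176.5 in control plants (log2 fold change 1.72, limma adjusted p = 0.00105). AT5G38710 and PDC2 both rose with no overlap of the groups, beside 18.2% of all tested probe sets fully separated with higher ozone signals. AT5G38710 reached the test only through its ozone signals, so its separation is no further support.

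The triose phosphate genes GAPC2 and TPI, which act beside ALDH11A3 in the cytosol, did not pass, at -0.28 (adjusted p = 0.384) and -0.24 (0.453) on the log2 scale, but were lower with the block (0.0141 and 0.0408). With the block and quantile normalization together their log2 fold changes were -0.07 (0.507) and -0.08 (0.423), and neither passed. The polyamine genes SAMDC and CuAO1, the second a copper amine oxidase that releases aminoaldehydes, had 0.02 and -0.15 and did not pass (limma adjusted p = 0.964 and 0.603).

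**Figure D3:**
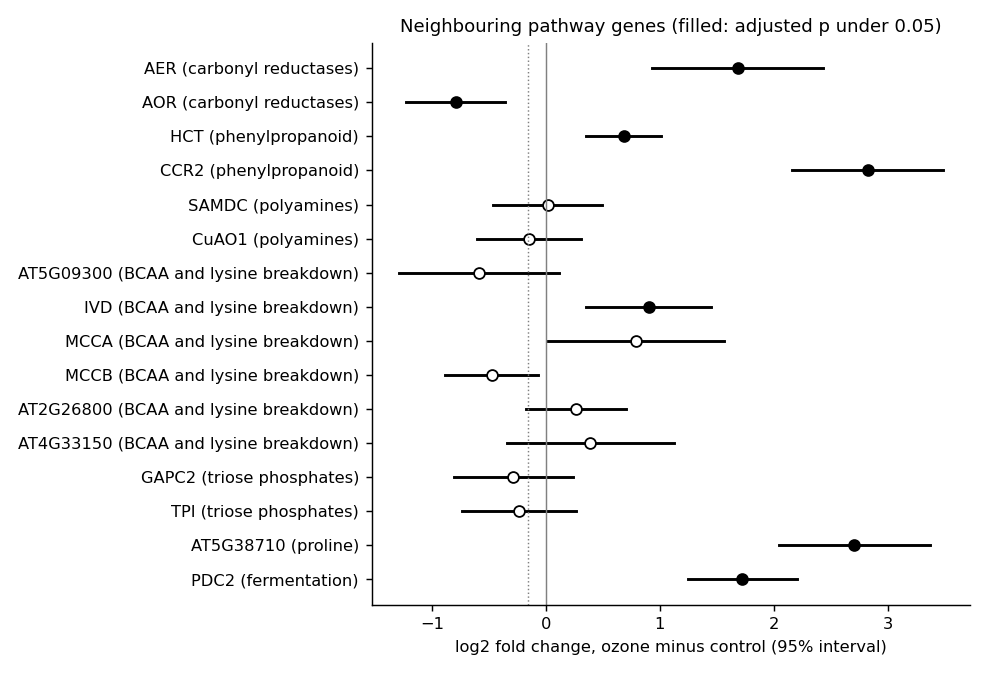
Log2 fold change, ozone minus control (horizontal axis), with its 95% interval for the 16 tested genes of pathways that make or use aldehydes; filled circles passed an adjusted p of 0.05 and the dotted line is the median of all tested probe sets. CCR2 (2.83), AT5G38710 (2.71), PDC2 (1.72), AER (1.68), IVD (0.90) and HCT (0.68) are above 0, and AOR (-0.79) is below it.

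Of the protein-coding genes next to a family member, 5 were tested. The neighbour of ALDH7B4, AT1G54110, had a log2 fold change of -0.28 (limma adjusted p = 0.394). AT2G24280, beside ALDH11A3, fell with a log2 fold change of -0.98 (adjusted p = 0.00741). AT1G74910, beside ALDH10A8, was lower with ozone (-0.69, adjusted p = 0.0290). These falls stand beside 14.9% of all tested probe sets called lower, and the neighbours were added after their values were seen. ORA47, on the other side of ALDH10A8, had 0.51 (adjusted p = 0.220). It was higher with the block (0.0417), beside 19.1% of all tested probe sets higher with the block. AT3G24506, beside ALDH2C4, had -0.09 (adjusted p = 0.721).

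The arrays as a whole set the limits of these values. Spearman correlations across probe sets were 0.956 to 0.975 within the ozone group, 0.952 to 0.983 within the control group and 0.879 to 0.930 between the groups. Precision is limited by having 3 arrays a group. In whole plants, fewer cells of a type and less RNA per cell cannot be told apart. Markers of green tissue (2 of 3 measured) summed to signals of 3602.4 to 4989.3 with ozone and 4603.2 to 7248.0 in control plants. Such a sum is weighted to the brighter probe set. Taken singly, RCA had 1602.7 to 2069.4 with ozone and 2076 to 3172.5 in control plants. LHCB4.1 had 1999.7 to 2919.9 with ozone and 2521.1 to 4075.5 in control plants. Root markers (3 of 3 measured) summed to 1856.8 to 2478.1 with ozone and 2235.3 to 3440.0 in control plants, a sum that is nearly all PYK10 (1805.8 to 2419.8 with ozone and 2154.2 to 3350.2 in control plants). The root hair markers EXPA7 and EXPA18 had 21.5 to 28.2 and 21.0 to 30.1 with ozone, against 44.3 to 47.6 and 35.8 to 45.5 in control plants. The guard cell marker FMA (1 of 2 measured) had 42.4 to 45.8 with ozone and 37.5 to 70.5 in control plants. None of the measured markers was at 0 on any array, and those of vascular tissue and epidermis were not analysed here. Of the 6 markers 1 passed, the root hair expansin EXPA7 (log2 fold change -0.94, limma adjusted p = 0.0101). This stands beside 28.0% of all tested probe sets called, 14.9% lower. The ozone signals of EXPA7 (28.2, 21.5 and 22.3) were all below the filter level of 31.2, so it was tested through its control signals, and adding 64 to every signal gave it a log2 fold change of -0.32. EXPA7 was too dim to be tested with a filter at the 60th percentile or without control replicate 1 or control replicate 3. The same held without both arrays numbered 1. EXPA18, whose ozone signals were also all below the filter level, was likewise tested through its control signals. With the block, RCA, LHCB4.1, PYK10 and EXPA7 were lower, beside 30.0% of all tested probe sets lower with the block. With the block and quantile normalization together EXPA7 passed (adjusted p = 0.0108), but RCA (0.195), LHCB4.1 (0.514) and PYK10 (0.413) did not. The part of cell composition in the values of ALDH7B4, ALDH3F1, ALDH2C4 and ALDH11A3 was not tested.

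**Figure D4:**
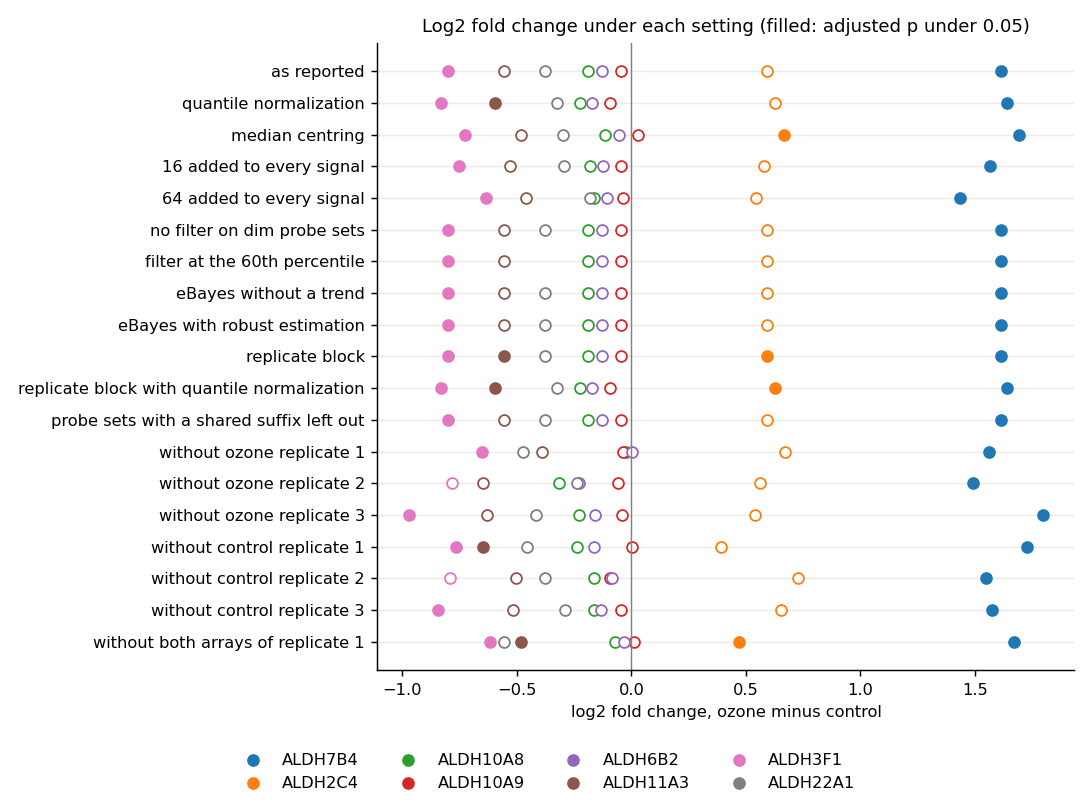
Log2 fold change, ozone minus control (horizontal axis), of the 8 aldehyde dehydrogenase genes (colours) in the reported fit and under 18 alternatives (rows); filled circles passed an adjusted p of 0.05. ALDH7B4 is filled in every row and lies between 1.44 and 1.80, and ALDH3F1 is filled in all but 2 rows, those without ozone replicate 2 and without control replicate 2.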

How the data were processed

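The authors' deposited values are MAS5 signal intensities, 1 per probe set and array, and MAS5 is named without a version per the submitters' processing notes. Each array has a mean of 100 once its top and bottom 2% are trimmed, as computed from the values. Groups and replicate numbers come from the sample titles. Nothing there gives replicates a separate culture, so the p-values cover a spread among these 6 samples that may be technical.

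For log2, each of 95 zeros was given its array's smallest positive signal. Removing 64 control probe sets, and those whose mean lay under the 40th percentile (31.2 in signal), left 13648. The ozone effect was fitted in R 4.3.3 with limma 3.58.1, using lmFit and a trended eBayes, and its two-sided p-values were adjusted by Benjamini-Hochberg over the 13648 probe sets, with 0.05 as threshold. A positive log2 fold change means a higher signal with ozone. The 95% intervals are unadjusted, so an interval can leave out 0 where the adjusted p does not pass. The code was tested on simulated data.

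Names came from the annotation table of the platform, in which 13513 name 1 gene and 503 several, while 8794, controls included, are unnamed here. Of the 13513, 13436 matched a RefSeq locus (TAIR10.1 table), used for names and for which genes neighbour each other. Where a list gene had several probe sets, the brightest stood for it. The members, the lists, the tests and the naming rule were chosen with earlier results of these data known. The rule names all 8 members, every tested gene of a list with 6 or fewer tested, and the 3 genes most like the member of smallest p. Neighbouring genes were added after their values were seen.

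Deviations from the group means, correlated across tested probe sets, had r = 0.747, 0.374 and 0.439 for replicate numbers 1, 2 and 3, all above the bound of 0.1, so the number was read as pairing the arrays. Control replicate 2 had 0.413 with ozone replicate 3, so numbers 2 and 3 are hardly told apart. Deviations within a group sum to 0, so what arrays numbered 1 share can alone give positive r for numbers 2 and 3. The pairing therefore rests mainly on number 1. The fit without the block is the reported one. The alternatives changed the scaling (quantile, or centring on the median), added 16 or 64 to every signal, dropped the filter or moved it to the 60th percentile, took the trend out of eBayes or made it robust, added the block (also with quantile scaling), removed probe sets with a shared suffix, or left out 1 array.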

Additional observations from a re-analysis of the deposited data

How the results depend on the processing

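ALDH7B4 was higher with ozone and passed under all 18 alternatives (log2 fold change 1.44 to 1.80), and ALDH3F1 was lower under all 18 and passed under 16. ALDH2C4 passed under 4 of 18 (median centring, the block with or without quantile normalization, and without both arrays numbered 1, an alternative chosen after seeing the data). ALDH11A3 passed under 5 (quantile normalization, both block fits, without control replicate 1 and without both arrays numbered 1). ALDH10A8, ALDH10A9, ALDH6B2 and ALDH22A1 passed under none of those run, and with a filter at the 60th percentile ALDH22A1 was not tested. The number of family members called was 2, against 4 with the replicate block, 4 with the replicate block and quantile normalization, 4 without both arrays numbered 1, and 1 to 3 when 1 array was left out. The log2 fold change of ALDH10A9 was -0.05, but 0.0292 with median centring, 0.0099 without both arrays numbered 1, and -0.0934 to 0.0017 when 1 array was left out. That of ALDH6B2 lay between -0.23 and 0.0043 when 1 array was left out. The difference between the ALDH10A8 and ALDH10A9 responses was -0.257 to 0.0151 in the same way.

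Over all tested probe sets 3816 were called, against 6699 with the replicate block, 6440 with the replicate block and quantile normalization, 2220 to 3687 when 1 array was left out and 4823 without both arrays numbered 1. Of those calls 1777 were higher and 2039 lower, against 1829 and 1601 with median centring. Among the pathway lists, 1 carbonyl reductase was called with median centring (1 to 2 when 1 array was left out). With a filter at the 60th percentile 1 phenylpropanoid gene and 0 proline genes were called, since CCR2 and AT5G38710 were then too dim to be tested. When 1 array was left out the phenylpropanoid count was 1 to 2 (CCR2 was not tested without ozone replicate 1, and HCT did not pass without control replicate 2). In amino acid breakdown 3 genes were called with either block fit, 0 without both arrays numbered 1 and 0 to 1 when 1 array was left out. In the triose phosphate list 2 were called with the block, 0 with the block and quantile normalization, and 1 without both arrays numbered 1. SAMDC turned to -0.0029 without both arrays numbered 1 and lay between -0.14 and 0.15 when 1 array was left out. Other causes were not tested. Apart from the changes named here and beside the results, the block changed no call of a gene named in the family, the pathway lists, the markers or the neighbours.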
